A study of Homo sapiens with 4 samples.

Results

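The genes described here are 10 markers of the intestinal epithelial lineage, measured in AGS, an established cell line from a human gastric adenocarcinoma. They were chosen by name, with earlier results of these data known. They are CDX1, CDX2, LGALS4, CEACAM5, CEACAM6, VIL1, CDH17, TFF3, MUC2 and MUC13, each found by its symbol among clusters that the array annotation gives exactly 1 symbol. A cluster is the set of probes that reports on 1 transcript locus. All 10 were found, with 1 cluster each, among 18417 genes that have such a cluster, and no filter on dim clusters was applied, so all 10 were tested. The 4 arrays (Affymetrix Human Gene 1.0 ST) fall into 2 groups of 2 labelled biological replicates. One group is AGS cells given ornithogalum, a homeopathic formulation, at 0.01% for 36 h. The other group is AGS cells given ethanol, its vehicle, for the same 36 h, at a concentration that the labels do not state. Both groups were grown to near confluence in 6-well plates in medium with fetal bovine serum, and both therefore share the one cell line and the culture conditions. The labels call the replicates biological and say nothing more of how they were made, so the p-values describe the spread between these arrays.

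The intestinal epithelium is built under caudal-type homeodomain transcription factors, CDX1 and CDX2, which are switched on in the developing gut and kept on in the adult intestine. Normal stomach lining has little of either factor. Their appearance, together with intestinal structural and secretory genes, marks intestinal metaplasia, in which stomach glands take on intestinal features, and many gastric cancer lines carry part of this programme. Absorptive enterocytes are recognised by brush border and adhesion proteins such as villin (VIL1), liver-intestine cadherin (CDH17), galectin-4 (LGALS4) and the carcinoembryonic antigen family (CEACAM5, CEACAM6). Goblet cells are recognised by the gel-forming mucin MUC2 and trefoil factor 3 (TFF3), and MUC13 is a membrane mucin of gut epithelium.

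In cells given ornithogalum, 5 of the 10 markers fell, all of them adhesion, glycan-binding or brush border genes: LGALS4, CEACAM5, VIL1, CEACAM6 and CDH17, by 3.27-fold to 1.54-fold. None of the 10 passed the test for a rise, although MUC13 was 1.33-fold above vehicle. At an unadjusted p under 0.05 there were 6 markers lower and 1 higher, beside 7160 of all 21214 tested clusters in either direction. The other 5, CDX1, CDX2, TFF3, MUC2 and MUC13, did not pass. "Fell" and "rose" refer throughout to limma's moderated test with Benjamini-Hochberg adjustment over 21214 clusters and an adjusted p under 0.05. By that rule 19.2% of all tested clusters changed, 12.6% lower and 6.57% higher, and 5 of 10 markers were lower. The markers were chosen with earlier results of these data known, so setting them beside these shares is no test of the set. Because 8 of the 10 markers had a mean log2 value above the median of the table, the share among all clusters at or above that median is also given. It was 19.1% lower and 9.96% higher, with 5 lower of those 8 markers. These clusters were not matched to the markers in brightness. The median log2 difference over the 10 markers was -0.72, and over all tested clusters it was 0.035. In bulk RNA, fewer cells that carry a transcript and less of that transcript per cell cannot be told apart.

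The differences held without either vehicle array, while the calls did not. The log2 difference of LGALS4 was -1.76 without vehicle replicate 1 and -1.66 without vehicle replicate 2, that of CEACAM5 -1.38 and -1.40, that of VIL1 -1.33 and -1.10, that of CEACAM6 -0.998 and -0.930, and that of CDH17 -0.65 and -0.60. In these fits vehicle is 1 array, the spread comes from the ornithogalum pair alone, and the lone array is assumed to vary like that pair. Limma then called 0 of the 10 markers and 0 of all clusters, with 5 and 6 markers and 4192 and 3986 clusters at an unadjusted p under 0.05. With 1 ornithogalum array left out, ornithogalum is 1 array and the spread comes from the vehicle pair alone. The 5 markers that fell kept a negative difference in both fits, as they must where both ornithogalum arrays lie below both vehicle arrays. The log2 difference of CDX2 was -0.49 without ornithogalum replicate 1 and -1.12 without ornithogalum replicate 2. The arrays also differed in distribution over the tested clusters, with a median log2 value of 4.48 and 4.62 for ornithogalum and 4.71 and 4.70 for vehicle. The interquartile range was 2.44 and 2.56 for ornithogalum and 2.72 and 2.71 for vehicle. With each array centred on its median, the median difference over all tested clusters went from 0.035 to 0.20. Under it 4 markers were lower (CDH17 no longer passed) and 1 higher (MUC13), where 8.95% of clusters were lower and 10.5% higher.

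**Figure D1:**
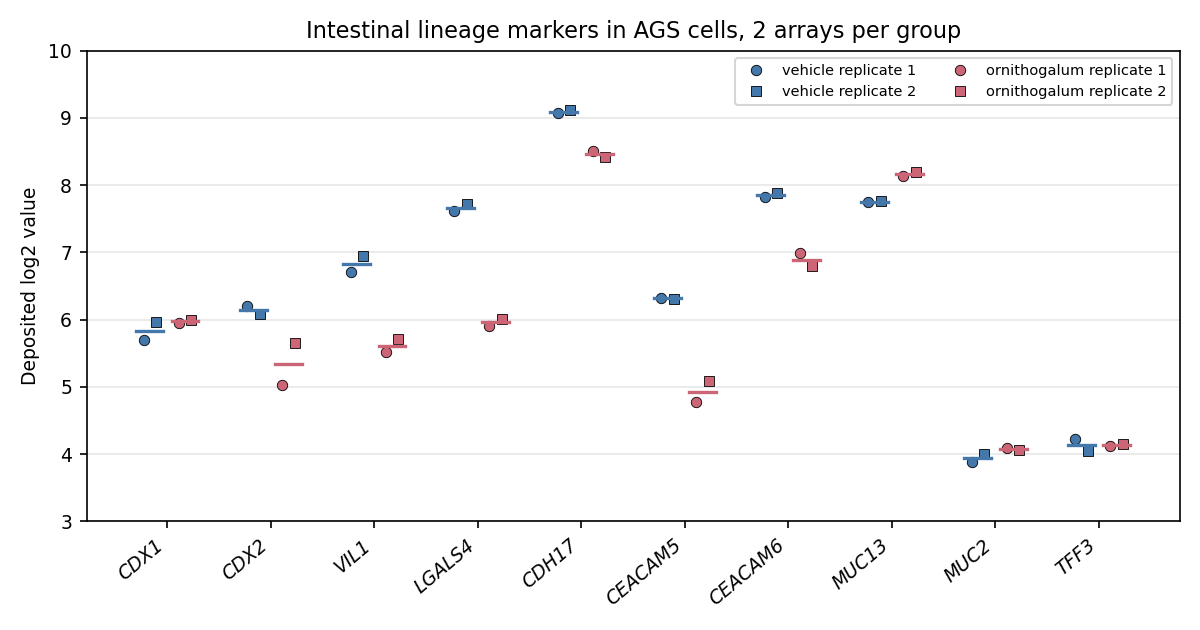
Deposited log2 values of the 10 markers on each of the 4 arrays, with vehicle in blue and ornithogalum in red. Circles are replicate 1, squares replicate 2 and bars the mean of the 2 arrays. LGALS4, CEACAM5, VIL1, CEACAM6 and CDH17 lie lower on both ornithogalum arrays, MUC13 lies higher on both, and TFF3 and CDX1 overlap between groups.

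The caudal factors differed in their values, and neither passed the test. CDX1 had log2 values of 5.69 and 5.97 on the vehicle arrays and 5.95 and 6.00 on the ornithogalum arrays. The groups overlapped, because the second vehicle array lay above the first ornithogalum array. The log2 difference was 0.15 (SE 0.14, 95% interval -0.21 to 0.50, limma's adjusted p = 0.51). CDX2 had 6.20 and 6.08 with vehicle and 5.02 and 5.65 with ornithogalum. Both ornithogalum arrays were below both vehicle arrays, but they were 0.63 apart from each other, the widest gap between arrays of 1 group among the 10 markers. The log2 difference of CDX2 was -0.81 (SE 0.23, 95% interval -1.39 to -0.22, adjusted p = 0.071), and the first ornithogalum array lay 1.12 and the second 0.49 below the vehicle mean on the log2 scale. This value sits beside the threshold: CDX2 passed under 6 of 14 other settings, among them array weights (adjusted p = 0.043), an intensity trend (adjusted p = 0.032) and cyclic loess (adjusted p = 0.049). The 6 include the fit without ornithogalum replicate 2, where ornithogalum is 1 array and the log2 difference was -1.12. Over all clusters of the table, those without a symbol included, CDX2 did not pass (adjusted p = 0.14).

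Among structural and adhesion genes of the absorptive cell, LGALS4 had the largest difference of the 10 markers. LGALS4 encodes galectin-4, a lectin that binds sugar chains on the apical membrane and takes part in delivering proteins to it. Its log2 value was 7.62 and 7.71 with vehicle and 5.90 and 6.01 with ornithogalum, so the groups were 1.61 apart at their nearest arrays. The fall was 3.27-fold (log2 difference -1.71, SE 0.12, adjusted p = 0.0034), and 0.971% of all tested clusters had a difference as low or lower. VIL1 encodes villin, which bundles actin in the microvilli of the brush border. Its log2 value was 6.71 and 6.94 with vehicle and 5.51 and 5.71 with ornithogalum. These groups were 1.00 apart, and the gap between the vehicle arrays (0.23) was about that between the ornithogalum arrays (0.20). VIL1 fell 2.32-fold (log2 difference -1.22, SE 0.14, adjusted p = 0.0074). CDH17, a cadherin of the lateral membrane that lacks the usual catenin-binding tail, was 9.07 and 9.12 with vehicle and 8.51 and 8.42 with ornithogalum. Its fall was the smallest of those that passed, 1.54-fold (log2 difference -0.62, SE 0.11, adjusted p = 0.022), and 12.3% of tested clusters were as low or lower. After median centring the log2 difference of CDH17 was -0.46 (adjusted p = 0.074), and over all clusters of the table, those without a symbol included, its adjusted p was 0.059. CDH17 passed with quantile normalization (log2 difference -0.655, adjusted p = 0.0175) and with cyclic loess (-0.619, adjusted p = 0.0172).

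CEACAM5 and CEACAM6 encode cell surface glycoproteins of the immunoglobulin superfamily, anchored by a lipid tail, that mediate adhesion between epithelial cells, and CEACAM5 is the carcinoembryonic antigen measured in serum of patients with gut tumours. CEACAM5 had log2 values of 6.32 and 6.31 with vehicle and 4.77 and 5.08 with ornithogalum. The vehicle arrays were 0.015 apart, the closest pair in the set, and the ornithogalum arrays 0.31. CEACAM5 fell 2.62-fold (log2 difference -1.39, SE 0.15, adjusted p = 0.0056). CEACAM6 had 7.82 and 7.89 with vehicle and 6.99 and 6.79 with ornithogalum, and fell 1.95-fold (-0.96, SE 0.13, adjusted p = 0.0091). The first ornithogalum array was the lower of the pair for CEACAM5 and the higher for CEACAM6.

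The promoter windows below are shown because CEACAM5 and CEACAM6 are close paralogs that fell together and LGALS4 fell most. MUC2, which did not pass, is shown because it alone of the matched markers holds TTTATG or TTTACG in this window. Other forms of the caudal-factor core were not searched. Of the 10 markers, 6 had an entry in the RefSeq promoter table (build GRCh38.p14): CDX2, LGALS4, CEACAM5, CEACAM6, MUC2 and MUC13. CDX1, VIL1, CDH17 and TFF3 are named only. Each window runs from 250 bases before the annotated gene start to 50 bases after it, 5′ to 3′ on the gene's own strand. Capitals mark every match, on either strand, to the letters TTTATG or TTTACG (cores bound by caudal-type factors), GTTAAT (part of an HNF1 site), AGATAA (as bound by GATA factors), TATAAA (the TATA box) or CACGTG (the E-box). The E-box was added to the search after the sequences had been read. Counted from the annotated start without a position 0, the last base before the gene is -1.

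CEACAM5 (chr19:41708376-41708675, plus strand): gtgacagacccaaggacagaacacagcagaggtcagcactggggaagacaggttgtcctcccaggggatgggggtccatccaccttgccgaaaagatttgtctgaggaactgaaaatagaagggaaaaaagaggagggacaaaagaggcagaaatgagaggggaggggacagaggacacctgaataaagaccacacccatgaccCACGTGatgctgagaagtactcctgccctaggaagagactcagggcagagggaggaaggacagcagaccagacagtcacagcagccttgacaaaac
CEACAM6 (chr19:41755280-41755579, plus strand): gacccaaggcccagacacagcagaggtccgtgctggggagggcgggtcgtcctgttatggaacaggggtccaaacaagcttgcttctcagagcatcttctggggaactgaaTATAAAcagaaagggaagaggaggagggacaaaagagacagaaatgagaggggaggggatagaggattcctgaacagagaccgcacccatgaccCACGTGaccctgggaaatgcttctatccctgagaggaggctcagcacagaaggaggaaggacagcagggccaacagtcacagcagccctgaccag
LGALS4 (chr19:38812896-38813195, minus strand): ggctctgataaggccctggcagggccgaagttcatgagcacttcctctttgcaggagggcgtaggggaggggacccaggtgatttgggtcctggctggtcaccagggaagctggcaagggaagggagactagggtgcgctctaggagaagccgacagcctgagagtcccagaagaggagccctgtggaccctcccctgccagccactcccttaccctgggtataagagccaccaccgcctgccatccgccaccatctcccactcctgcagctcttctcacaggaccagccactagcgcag
MUC2 (chr11:1074624-1074923, plus strand): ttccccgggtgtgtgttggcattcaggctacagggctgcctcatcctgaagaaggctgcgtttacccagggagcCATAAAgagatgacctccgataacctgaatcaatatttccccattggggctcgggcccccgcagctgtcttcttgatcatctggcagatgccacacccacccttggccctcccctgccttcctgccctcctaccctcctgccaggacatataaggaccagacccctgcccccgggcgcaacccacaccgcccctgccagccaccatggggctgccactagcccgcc

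The CEACAM5 and CEACAM6 windows were identical at 230 of 308 aligned positions (74.7%), whereas the other 14 pairs among the 6 windows were 42.4% to 50.5% identical under the same global alignment. Both hold CACGTG, starting at -46 in CEACAM5 and -45 in CEACAM6, a word found in 7.26% of 35116 promoter windows of the table. The capitals in CEACAM6 at -139 are TATAAA, found in 11.5% of windows. LGALS4 had no match to any of the 6 words. MUC2 holds CATAAA, the opposite strand of TTTATG, at -176, and 10.6% of all windows hold that word on either strand. CDX2, whose window is not printed, holds GTTAAT at -3 and the opposite strand of AGATAA at -119, and MUC13 holds the opposite strand of GTTAAT at -245. GTTAAT was found in 6.88% of windows and AGATAA in 10.3%. TTTACG, found in 3.12% of windows, was in no window of the 6. These are letter matches in a short window and say nothing of binding in these cells.

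CEACAM5 and CEACAM6 are next to each other in the RefSeq gene order, with 0 genes between them, inside a family cluster on chromosome 19. Of 11 family members measured, 3 fell: CEACAM5, CEACAM6 and CEACAM1, which encodes a membrane-spanning member also found in epithelium. CEACAM5 and CEACAM6 are among the chosen markers. Of the 9 other family members measured, 1 fell, beside 12.6% lower among all tested clusters. CEACAM1 was 7.93 and 8.04 with vehicle and 7.05 and 7.21 with ornithogalum, a fall of 1.81-fold (log2 difference -0.86, SE 0.12, adjusted p = 0.012). The other 8 did not pass, with log2 differences from -0.35 to 0.35 and adjusted p from 0.12 to 0.75. CEACAM3, a receptor of granulocytes that is the next gene after CEACAM6, was 4.95 and 4.99 with vehicle and 5.06 and 5.06 with ornithogalum (log2 difference 0.094, 95% interval -0.19 to 0.37). In none of those 8 did either group's mean exceed a log2 value of 5.062. Probe sequences were not used here, so how far paralogs share signal was not tested.

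**Figure D2:**
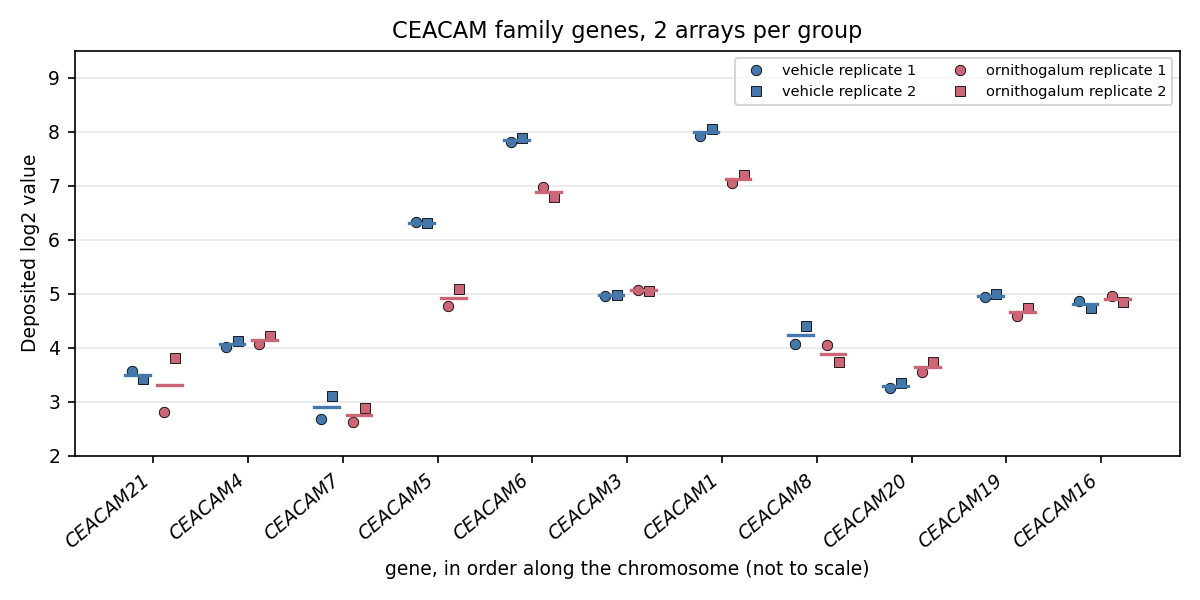
Deposited log2 values of the 11 measured CEACAM genes on the 4 arrays, in their order along the chromosome and not to scale. Circles are replicate 1, squares replicate 2 and bars group means. CEACAM5, CEACAM6 and CEACAM1 are lower on both ornithogalum arrays and passed the test. CEACAM8 and CEACAM19 are also lower on both without passing, CEACAM3 and CEACAM20 are higher on both, and the other 4 overlap.

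The mucins and the trefoil factor did not pass the test. MUC13 encodes a membrane-bound mucin with growth factor-like domains. Its log2 value was 7.74 and 7.77 with vehicle and 8.13 and 8.19 with ornithogalum, so both ornithogalum arrays were higher, and each pair of arrays lay within 0.061. The log2 difference was 0.41 (SE 0.11, 95% interval 0.12 to 0.69), with an unadjusted p = 0.014 and limma's adjusted p = 0.065. MUC13 passed, as higher, under 4 of 14 other settings, among them an intensity trend (adjusted p = 0.0087) and median centring (log2 difference 0.57, adjusted p = 0.033), and the adjusted p over all 14 ran from 0.0074 to 0.37. MUC2, the gel-forming mucin of goblet cells, was 3.88 and 4.0 with vehicle and 4.09 and 4.06 with ornithogalum. The ornithogalum arrays were both higher, by 0.064 at the nearest arrays, and the log2 difference was 0.13 (SE 0.12, 95% interval -0.16 to 0.43, adjusted p = 0.46). TFF3, a secreted peptide that helps restore damaged mucosa, was 4.23 and 4.05 with vehicle and 4.12 and 4.15 with ornithogalum. Both ornithogalum values lay between the vehicle values, and the log2 difference was -0.0030 (SE 0.12, 95% interval -0.32 to 0.31, adjusted p = 0.99). Its sign turned with several settings, among them median centring (0.16) and quantile normalization (0.039). MUC2 and TFF3 were the 2 markers with a mean log2 value below the median of the table (4.31), and the deposited table gives no detection call that would tell such a signal from background.

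**Figure D3:**
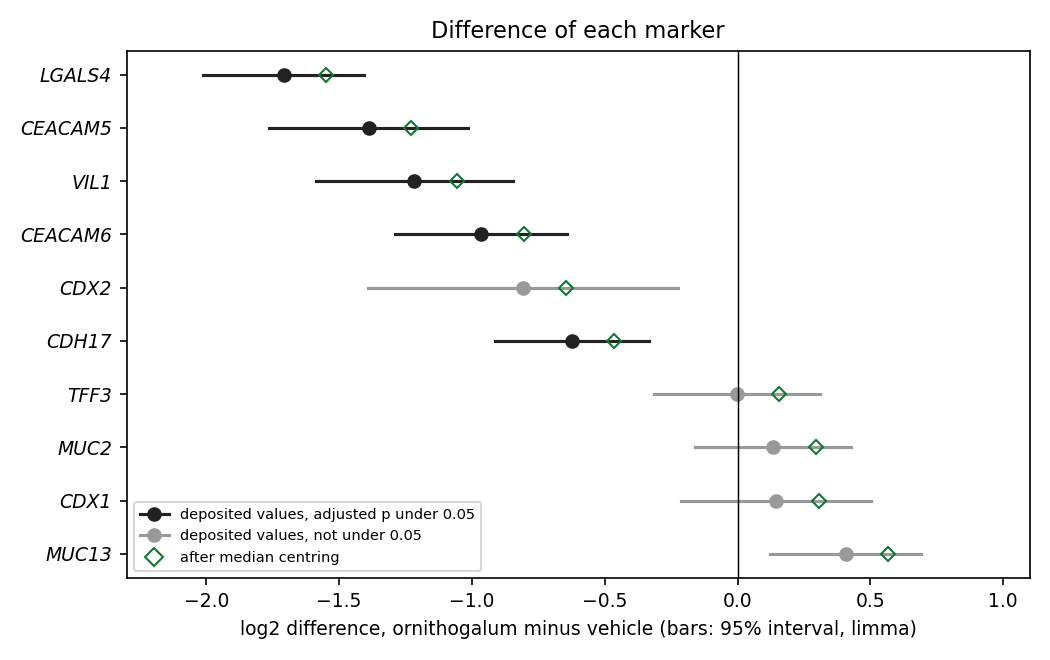
Log2 difference of each marker, ornithogalum minus vehicle, with limma's 95% interval on the deposited values (black where the adjusted p is under 0.05, grey where not). Green diamonds give the difference after median centring, which moves every marker up by 0.16. The intervals of the 5 markers that fell lie wholly below -0.33, those of CDX1, MUC2 and TFF3 span 0, and those of CDX2 and MUC13 do not reach 0 although their adjusted p is above 0.05.

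The ornithogalum arrays did not overlap the vehicle arrays in 8 of the 10 markers, 6 lower (the 5 that fell and CDX2) and 2 higher (MUC13 and MUC2). Over all tested clusters this held for 62.2%, 30.2% lower and 32% higher. CDX1 and TFF3 were the markers that overlapped. The gap between the vehicle arrays ran from 0.015 (CEACAM5) to 0.27 (CDX1) on the log2 scale, and that between the ornithogalum arrays from 0.025 (MUC2) to 0.63 (CDX2). Log2 values of different genes come from different probes and are not compared as amounts.

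**Figure D4:**
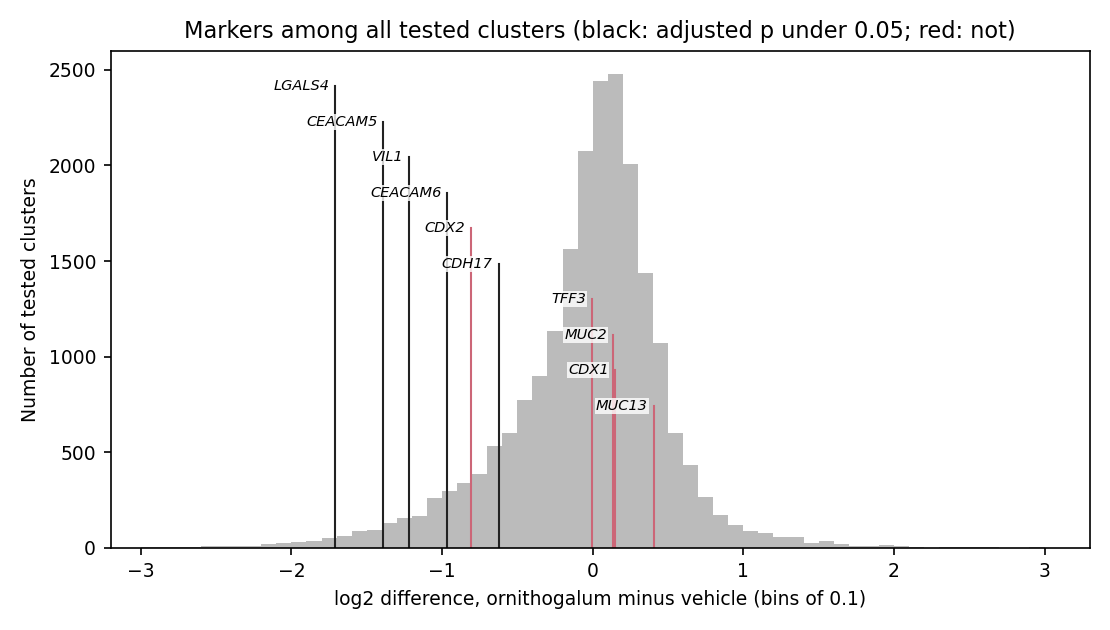
Histogram of the log2 difference, ornithogalum minus vehicle, over the 21214 tested clusters in bins of 0.1, with a line for each of the 10 markers (black where the adjusted p is under 0.05, red where not). LGALS4, CEACAM5, VIL1 and CEACAM6 lie in the lower tail, where 0.971% to 5.89% of clusters are as low or lower, and CDX1, MUC2 and TFF3 lie in the bulk.

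Other genes of the intestinal programme, from 6 lists of 116 genes that leave out the 10 markers, went both ways. Of 103 measured, 7 fell (6.80%) and 5 rose (4.85%), with a median log2 difference of 0.075, set beside 12.6% lower and 6.57% higher among all clusters. Many of these genes gave little signal: 61 of the 103 had a mean log2 value below the median of the table. Of the 42 above it, 6 fell and 4 rose, beside 19.1% lower and 9.96% higher among all clusters at or above that median. The counts of each list below are to be read beside the same 12.6% lower and 6.57% higher among all tested clusters. These shares are not repeated for every list. After median centring 3 of the 103 fell and 10 rose, where 8.95% of all tested clusters were lower and 10.5% higher.

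Of 20 transcription factors of gut epithelium measured, 3 were higher and 3 lower. A mean above the median of the table was seen in 16 of the 20. Among all clusters at or above that median 9.96% were higher and 19.1% lower. KLF4, a zinc finger factor of differentiated surface and goblet cells, rose 2.39-fold, from 5.36 and 5.40 with vehicle to 6.52 and 6.75 (log2 difference 1.26, SE 0.13, adjusted p = 0.0056). FOXA3, a forkhead factor of gut endoderm, rose 1.93-fold (adjusted p = 0.0078), and VDR, the vitamin D receptor, rose 1.81-fold (adjusted p = 0.0089). CREB3L1, a membrane-bound factor of secretory cells, fell 1.88-fold, from 5.79 and 5.75 to 4.89 and 4.83 (adjusted p = 0.0078). The other two that fell, EHF (1.78-fold) and GATA4 (1.43-fold), are an epithelial ETS factor and a zinc finger factor of stomach and proximal gut, and were chosen after their values were seen. GATA4 lost its call after median centring (adjusted p = 0.096), with the replicate block (adjusted p = 0.080) and without ornithogalum replicate 1 (adjusted p = 0.058). Under median centring 2 of these factors were lower and 4 higher.

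In the list of enterocyte and brush border genes, 1 of 39 measured fell and 1 rose, and 27 of the 39 had a mean below the median of the table. USH1C, which encodes harmonin, a scaffold of the links between microvilli, fell 1.80-fold, from 5.34 and 5.84 with vehicle to 4.77 and 4.71 with ornithogalum (adjusted p = 0.040). EPS8, an actin-capping and bundling protein of microvilli, rose 1.90-fold, from 6.23 and 6.15 to 7.10 and 7.13 (adjusted p = 0.0076). Villin and EPS8 both act on the actin core of the microvillus, and their transcripts differed in opposite directions. USH1C lost its call after median centring (adjusted p = 0.070) and without either ornithogalum array (adjusted p = 0.070 without replicate 1 and 0.062 without replicate 2), and EPS8 kept its call in each of these fits.

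Of 16 goblet cell and mucin genes measured, 1 fell and 15 did not pass. ST6GALNAC1, which adds sialic acid to mucin sugar chains, fell 1.51-fold, from 4.54 and 4.52 to 3.93 and 3.95 (log2 difference -0.59, SE 0.11, adjusted p = 0.023). REG4, a secreted lectin of goblet and endocrine cells, was 6.91 and 7.10 with vehicle and 7.54 and 7.24 with ornithogalum and did not pass (adjusted p = 0.16). ST6GALNAC1 lost its call after median centring, where 1 of the 16 rose, and when the replicate number was added as a block. Its mean log2 value lay below the median of the table, and the brighter of its 2 clusters is given.

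Among 6 other galectins measured, LGALS1 fell 1.47-fold, from 9.59 and 9.58 to 8.95 and 9.10 (adjusted p = 0.034). It lost the call after median centring (adjusted p = 0.074), with the replicate block (adjusted p = 0.066) and without ornithogalum replicate 1 (adjusted p = 0.0501). LGALS3, which like galectin-4 is an epithelial galectin, was 7.10 and 7.03 with vehicle and 7.65 and 7.48 with ornithogalum (log2 difference 0.49, 95% interval 0.18 to 0.81, adjusted p = 0.051), and it passed as higher after median centring (adjusted p = 0.040) and without ornithogalum replicate 2 (adjusted p = 0.026). Of 13 Paneth and enteroendocrine genes measured, 1 rose, the hormone gene SST, 1.42-fold (adjusted p = 0.044), at a mean log2 value below the median of the table. SST lost its call with the replicate block (adjusted p = 0.083) and without ornithogalum replicate 1 (adjusted p = 0.064). LYZ, the lysozyme gene, was 11.75 and 11.76 with vehicle and 11.70 and 11.73 with ornithogalum (95% interval of the log2 difference -0.32 to 0.24).

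**Figure D5:**
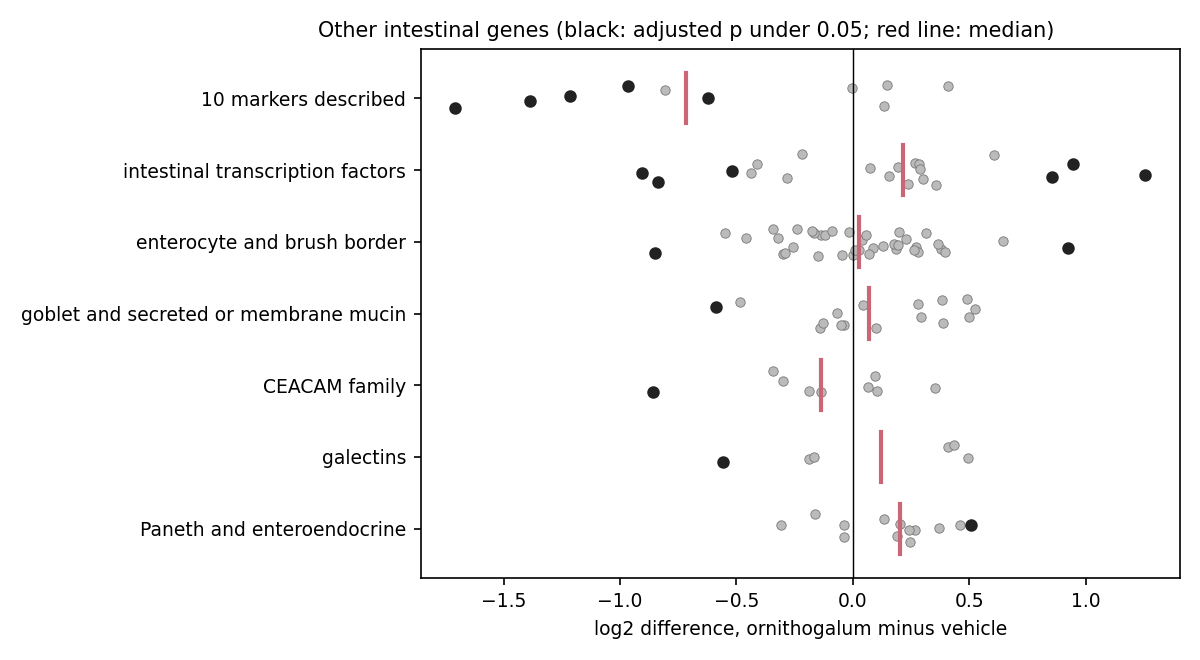
Log2 difference, ornithogalum minus vehicle, of the 10 markers (top row) and of 6 lists of other intestinal genes. Each point is 1 gene, black where the adjusted p is under 0.05, and red lines are list medians, which run from -0.14 (CEACAM family) to 0.22 (transcription factors) over the 6 lists and lie at -0.72 for the 10 markers.

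The label of a gastric epithelial line was checked against marker lists. All 8 epithelial markers measured had a mean log2 value above the median of the table, and 2 fell: KRT19, a simple-epithelium keratin, 2.63-fold (adjusted p = 0.0044), and CLDN7, a tight junction claudin, 1.69-fold (adjusted p = 0.021, and 0.063 after median centring). Among all clusters at or above that median, 19.1% were lower. Of 16 gastric markers measured, 6 lay above it. In the lists for fibroblasts, leukocytes and endothelium, 3 of 27 markers measured rose, namely PDGFRA (2.08-fold), CD68 (2.26-fold) and ESAM (2.48-fold). Among all tested clusters 6.57% were higher. Of the 27, 20 had a mean below the median of the table. Summed linear signal was 176 to 178 with vehicle and 187 to 205 with ornithogalum for fibroblasts, 188 to 195 and 297 to 344 for leukocytes, and 97.1 to 99.4 and 134 to 136 for endothelium. These sums add values from different probes and are not amounts of a cell type. A single gene carried most of each rise. Without PDGFRA the fibroblast sum was 151 to 153 with vehicle and 140 to 150 with ornithogalum. Without CD68 the leukocyte sum was 88.5 to 91.4 and 85.2 to 96.4, and without ESAM the endothelial sum was 74.6 to 79.1 and 80.3 to 84.0. Their part in the falls of the intestinal markers was not tested.

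The 3 genes whose values over the 4 arrays were most like those of LGALS4, the marker of smallest p, were SMYD2, FANCF and MCTS1. The measure was the root mean square distance between log2 values after centring each gene on its own mean, over 18407 genes outside the set. SMYD2, a lysine methyltransferase gene, had 6.85 and 6.93 with vehicle and 5.13 and 5.19 with ornithogalum, at a distance of 0.023. FANCF, of the Fanconi anaemia core complex, lay at 0.033 and MCTS1, a factor of translation re-initiation, at 0.036. With 4 arrays such likeness describes these arrays only.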

How the data were processed

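The authors deposited 1 table of log2 expression values for 33297 clusters on 4 arrays. Per the submitters' processing notes, it was made with Affymetrix Expression Console 1.1 by RMA (robust multi-array average). How background and scaling were set is not given in the sources used here. Arrays have no sequencing depth, and their number limits the precision. Names came from the 2016 platform annotation (19460 clusters with 1 symbol, 1754 with several, 12083 with none), updated by gene number through RefSeq for 19429.

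Ornithogalum was compared with vehicle in limma 3.58.1 (R 4.3.3; lmFit and eBayes, two-sided) on the 21214 clusters with a symbol, with Benjamini-Hochberg adjustment over all of them. The code was tested on simulated data. Listed genes are represented by their cluster of highest mean. All 10 markers are named. Of each other list the rule names up to 4 called genes of smallest p, or the brightest up to 2 in all. Windows were aligned with Biopython 1.88. The markers and lists were chosen with earlier results of these data known. Alternatives covered scaling, filter, variance prior, weights, block, threshold and each array left out.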

Additional observations from a re-analysis of the deposited data

How the results depend on the processing

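LGALS4, CEACAM5, CEACAM6 and VIL1 kept their call in 12 of 14 other settings each. They lost it without vehicle replicate 1 and without vehicle replicate 2, where vehicle is 1 array and only the ornithogalum pair gives a spread. There the differences stayed near their size (-0.998 and -0.930 for CEACAM6, against -0.96 on all arrays). Their direction was the same in all 14, but most of these settings could not change it. Block, filter, variance prior and weights leave the difference as it is. With an array left out the sign could not turn, because the groups did not overlap in these markers. Only quantile normalization, cyclic loess and median centring could have turned it. The number of markers called lower ran from 0 to 6 when single arrays were left out, the number of other intestinal genes called from 0 to 33 (12 on all arrays) and the number of clusters from 0 to 7058 (4076 on all arrays). The highest values came without ornithogalum replicate 2. Testing all 33297 clusters gave 2644 calls and 7 other intestinal genes, and a threshold of 0.01 gave 1443 and 5. The number of markers called higher, 0 by limma on the deposited values (1 at an unadjusted p under 0.05), was 1 (MUC13) with median centring, brighter clusters only, an intensity trend with or without a robust prior, and a threshold of 0.10. The log2 difference of TFF3, -0.0030, turned to 0.039 with quantile normalization, 0.017 with cyclic loess and 0.16 with median centring, and ran from -0.091 to 0.085 with single arrays left out. The filter for brighter clusters left out MUC2 and TFF3. The cause of these shifts was not tested. The excess of lower over higher calls among all clusters, 2683 and 1393, became 1898 and 2238 after median centring. It stayed with quantile normalization (2482 and 1602) and with cyclic loess (2750 and 1610). The median difference over the tested clusters was 0.0057 and -0.0072 in those 2 settings, against 0.20 with median centring.

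The replicate numbers are shared by the groups, and nothing in the labels pairs the arrays. Same-numbered arrays did not deviate together (r = -0.059 across clusters). With the number as a block, 5 markers were called lower and 0 higher by limma (7 at an unadjusted p under 0.05), with 4 other intestinal genes lower and 4 higher. Of all 21214 tested clusters, 2267 were called lower and 1035 higher in that fit, and 6657 had an unadjusted p under 0.05.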

Other observations

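Of 16 genes of the stomach lineage measured, 2 fell and 1 rose, shares near the 12.6% lower and 6.57% higher among all tested clusters. TFF1, the trefoil peptide of the gastric surface, fell 1.51-fold, from 6.06 and 6.24 with vehicle to 5.51 and 5.60 with ornithogalum (limma's adjusted p = 0.032). PGC, the gene of pepsinogen C, fell 1.41-fold, from 5.66 and 5.72 to 5.15 and 5.23 (adjusted p = 0.041). SOX2, a transcription factor of foregut and stomach, rose 1.73-fold, from 3.89 and 3.63 to 4.52 and 4.58 (adjusted p = 0.019). Its mean log2 value lay below the median of the table. Like TFF1 and PGC, SOX2 lost its call over all clusters of the table, those without a symbol included (adjusted p = 0.054). TFF1 and PGC lost their calls after median centring (adjusted p = 0.075 and 0.11), with the replicate block (0.052 and 0.082) and without ornithogalum replicate 1 (0.055 and 0.060).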
